A study of Mus musculus with 5 samples.

Results

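The Nxpe genes encode proteins with a neurexophilin and PC-esterase domain. The mouse members with a protein-coding gene that were described here are Nxpe2, Nxpe3, Nxpe4 and Nxpe5, found by gene symbol, and they make up 4 of the 55471 genes in the tables. They were chosen by earlier results of the same contrast in the same libraries, propyzamide against vehicle. Every gene-level value of theirs below, calls and counting intervals included, is therefore a description and no support for a difference. Nxpe2 and Nxpe4 were lower in all 3 propyzamide libraries than in both vehicle libraries, by 17.0-fold and 7.60-fold in the fitted means. Nxpe5 was low in both groups and lower in propyzamide, with 3 counts in the 3 propyzamide libraries against 20 counts in the 2 vehicle libraries. Nxpe3 had 7 counts in each group and its values overlapped.

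RNA was sequenced from flash-frozen pieces of colon. The mice were C57BL/6 males of 11 weeks, and the colon was taken 3 days after TNBS, a hapten that provokes colitis when given into the colon. Of the 5 libraries, 3 came from mice given TNBS and propyzamide, a herbicide that acts on plant microtubules, and 2 came from mice given TNBS and vehicle. Both groups therefore carry the TNBS injury, and colon without TNBS was not analysed here. Neither the segment of colon, nor the dose, nor strandedness is given in the sources used here. The labels give each sample as a treated mouse and do not say whether any samples share an animal, so each p-value reflects only how these samples vary. The second index sequence of the libraries differs between the groups, so a batch of indexing and the treatment cannot be told apart.

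Members of this family are best known from the intestine. In human colon, NXPE4, once called FAM55D, is a gene of the epithelium whose level is lower in colorectal cancer, and human NXPE1 has been reported to add acetyl groups to the sialic acids of colonic mucins. In the mouse, Nxpe1 is annotated as a pseudogene, Nxpe1-ps. The sialic acids that end mucin sugars, and the acetyl groups on them, limit how fast bacterial enzymes take the mucus apart. What the proteins of Nxpe2, Nxpe3 and Nxpe5 do is little known.

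Nxpe2 and Nxpe4 lie at 1 locus on chromosome 9 of the GRCm38 build, and the other members lie elsewhere. Nxpe2 spans chr9:48318006-48353454 on the minus strand. Nxpe4 spans chr9:48162023-48400025 on the plus strand, so that Nxpe2 lies within a long intron of the Nxpe4 transcripts that start farthest upstream. Exons of Nxpe2 cover 4102 bases and those of Nxpe4 cover 5911 bases, and 0 of these bases are shared. The starts of the main transcripts, Nxpe2-201 and Nxpe4-201, face away from each other and are 21143 bases apart, while Nxpe4-203 starts 200018 bases before Nxpe4-201. Nxpe1-ps follows at chr9:48418321-48431959. Nxpe3 spans chr16:55839953-55895285 on the minus strand and overlaps Gm17809, a processed pseudogene on the same strand, and Nxpe5 spans chr5:138225898-138253363 on the plus strand.

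**Figure D1:**
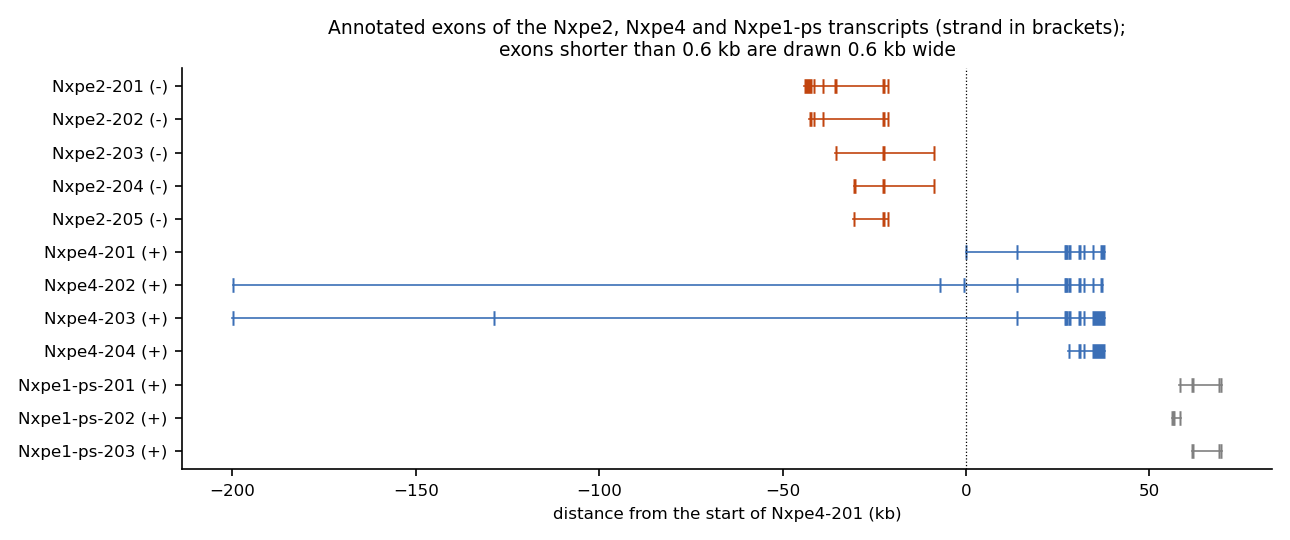
Annotated exons (blocks) and introns (lines) of each transcript of Nxpe2, Nxpe4 and the pseudogene Nxpe1-ps, by distance in kb from the start of Nxpe4-201. All Nxpe2 transcripts fall between the far upstream starts of Nxpe4-202 and Nxpe4-203 and the start of Nxpe4-201, and exons shorter than 0.6 kb are drawn 0.6 kb wide.

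The promoter windows of Nxpe2 and Nxpe4 are shown because these are the members with lower values in propyzamide that share a locus. Both are RefSeq sequences of build GRCm38.p6, from 250 bases before to 50 bases after the annotated start, 5′ to 3′ on the strand of the gene. Capitals mark the matches to 5 motifs searched on both strands: the Cdx site TTTATG, the HNF4 site CAAAGTCCA, the HNF1 site GTTAAT, the GATA site AGATAA and the TATA box TATAAA. These are sites of factors that act in intestinal epithelium, and the general TATA box.
Nxpe2, chr9:48340849-48341148, minus strand: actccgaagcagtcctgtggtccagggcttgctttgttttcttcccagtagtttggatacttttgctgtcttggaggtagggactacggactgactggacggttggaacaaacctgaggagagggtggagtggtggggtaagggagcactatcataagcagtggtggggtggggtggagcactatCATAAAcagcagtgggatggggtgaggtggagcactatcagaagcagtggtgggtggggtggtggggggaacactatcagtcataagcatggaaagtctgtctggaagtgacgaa
Nxpe4, chr9:48361791-48362090, plus strand: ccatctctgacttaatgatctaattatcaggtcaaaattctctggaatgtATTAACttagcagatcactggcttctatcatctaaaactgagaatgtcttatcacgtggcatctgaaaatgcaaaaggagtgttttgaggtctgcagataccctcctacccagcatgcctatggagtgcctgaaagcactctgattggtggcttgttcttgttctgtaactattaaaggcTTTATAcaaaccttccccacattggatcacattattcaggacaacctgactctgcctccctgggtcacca
The Nxpe2 window holds the Cdx letters on the opposite strand, as CATAAA, 65 bases before the start. The Nxpe4 window holds the HNF1 letters on the opposite strand, as ATTAAC, 200 bases before the start, and the TATA box on the opposite strand, as TTTATA, 20 bases before it. Of all 32851 promoters in the same table, 11.9% hold the Cdx letters, 7.10% the HNF1 letters, 13.6% the TATA box, 11.2% the GATA letters and 0.475% the HNF4 letters. The pair shared none of the 5 motifs, and the windows of Nxpe3 and Nxpe5 held none of them. Base composition differed among the members: the Nxpe3 window has 37 CpG and 70.7% G or C, against a median of 7 CpG and 52.7% over all promoters. The Nxpe2, Nxpe4 and Nxpe5 windows have 4, 1 and 1 CpG, with 53.3%, 42.3% and 45.0% G or C.

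The encoded proteins are alike in length, with 558 residues for Nxpe2, 559 for Nxpe3, 543 for Nxpe4 and 564 for Nxpe5 in the longest reading frames of the GENCODE transcripts. Nxpe2 and Nxpe4 are the closest pair, with 55.5% identical residues over 541 aligned positions. The other pairs lie between 29.8% for Nxpe2 with Nxpe3 and 38.8% for Nxpe3 with Nxpe5. The neighbouring genes have little transcript sequence in common: of the 31-base words in their transcripts, 4097 for Nxpe2 and 5960 for Nxpe4, 26 are shared. Nxpe1-ps shares 26 words with Nxpe2 and 89 with Nxpe4, and it had 0, 1 and 0 counts in propyzamide and 1 and 0 counts in vehicle.

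Depth limits these values. The libraries held 2706885, 2441897 and 1882235 estimated counts in propyzamide and 1573700 and 2258237 counts in vehicle, and 26.3% to 43.6% of each library lay in rRNA-like loci and 9.998% to 21.6% in mitochondrial genes. With TMM scaling (edgeR's correction for composition), 1 count was worth 0.340 to 0.609 CPM (counts scaled to a common library size) in propyzamide and 0.414 to 0.567 CPM in vehicle. Olfactory and vomeronasal receptor genes, 1464 in all, most of which colon is not known to use, served as a gauge of stray counts. They had 0.0866, 0.689 and 0.206 counts per kb of gene length in propyzamide and 1.35 and 0.840 counts per kb in vehicle, so the stray level was higher in both vehicle libraries than in any propyzamide library.

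Nxpe2 had 15, 6 and 2 counts in the propyzamide libraries, against 181 and 71 counts in the vehicle libraries. On the CPM scale these are 5.10, 3.08 and 1.22 in propyzamide and 74.9 and 40.3 in vehicle, with means of 3.13 ± 1.94 CPM in propyzamide (SD, n = 3) and 57.6 ± 24.4 CPM in vehicle (SD, n = 2). The highest propyzamide library was below the lowest vehicle library. The fitted log2 fold change was -4.09 with an SE of 0.52. In the summed counts, 23 in propyzamide and 252 in vehicle, the level was 17.1 times higher in vehicle. The exact 95% counting interval was 11.2 to 27.5 and covers counting error at most. The counts were 144, 7.26 and 8.09 times the stray level for the gene's length in propyzamide and 112 and 70.5 times in vehicle. That length is a mean over the annotated transcripts, which run from 517 to 3366 bases. Most Nxpe2 counts lay on the longest, Nxpe2-201, at whose length the multiples would be lower.

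Nxpe4 had 25, 8 and 3 counts in propyzamide and 121 and 49 counts in vehicle. The CPM values were 8.50, 4.11 and 1.83 in propyzamide and 50.04 and 27.8 in vehicle, with means of 4.81 ± 3.39 CPM in propyzamide (SD, n = 3) and 38.9 ± 15.7 CPM in vehicle (SD, n = 2). The groups did not overlap here either, and the libraries stood in the same order within each group as for Nxpe2. The fitted log2 fold change was -2.93 with an SE of 0.55. The summed counts, 36 in propyzamide and 170 in vehicle, put the level 7.38 times higher in vehicle, with a counting interval of 5.13 to 10.9. Its counts were 77.8, 3.13 and 3.92 times the stray level in propyzamide and 24.2 and 15.7 times in vehicle. These multiples are not compared with those of Nxpe2, whose annotated transcripts include shorter ones.

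**Figure D2:**
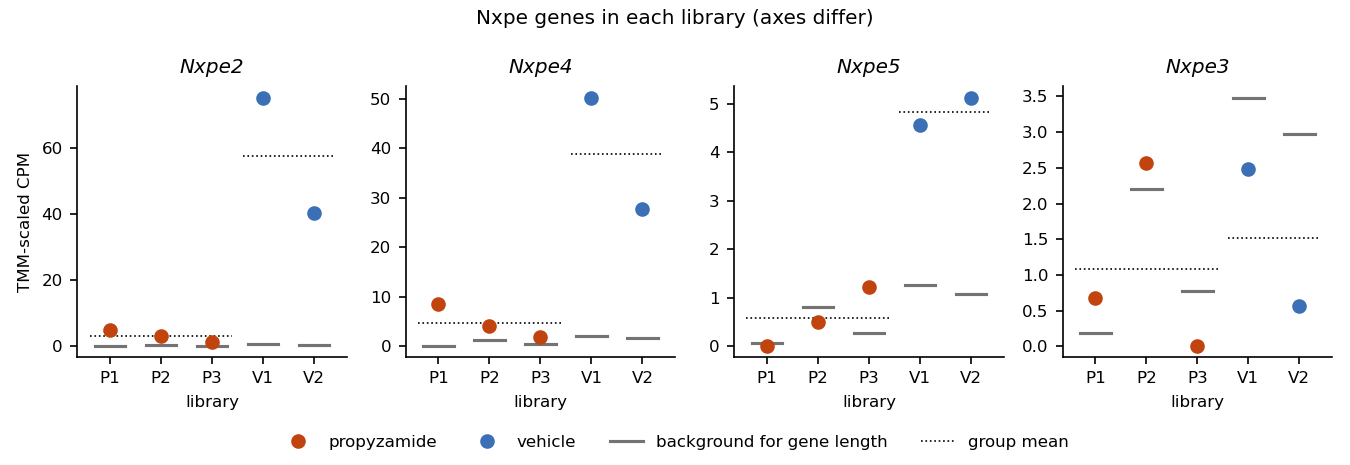
Level of each Nxpe gene in TMM-scaled CPM in the 3 propyzamide libraries (P1 to P3) and the 2 vehicle libraries (V1, V2), with the group mean (dotted) and the stray level for the gene's length (grey bars). Nxpe2 and Nxpe4 lie at 8.50 CPM or less in propyzamide and at 27.8 CPM or more in vehicle, and each panel has its own axis.

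Of the 4 members, 2 passed edgeR's filter on low counts, Nxpe2 and Nxpe4, and both passed on the strength of the vehicle libraries. Each was below an adjusted p of 0.05 in the fit over 12024 genes, where 1.21% of genes were called lower in propyzamide and 0.69% called higher. In 20.8% of the genes tested, every propyzamide library lay below both vehicle libraries, as for these members. Left without vehicle replicate 1, Nxpe2 was no longer called, with a log2 fold change of -3.60. Nxpe4 lost the call without propyzamide replicate 3 (-2.59), without vehicle replicate 1 (-2.47) and without vehicle replicate 2 (-3.23). The contrast that chose the members is the same, so nothing is read from these shares.

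Nxpe5 had 0, 1 and 2 counts in propyzamide and 11 and 9 counts in vehicle. These are 0, 0.513 and 1.22 CPM in propyzamide and 4.55 and 5.11 CPM in vehicle, with means of 0.577 ± 0.611 CPM in propyzamide (SD, n = 3) and 4.83 ± 0.394 CPM in vehicle (SD, n = 2). The propyzamide values lay under the floor of 3 counts, which is 1.02 to 1.83 CPM per library, and the vehicle values above its range of 1.24 to 1.70 CPM. The stray level for this gene's length was 0.198, 1.57 and 0.470 counts in propyzamide and 3.07 and 1.92 counts in vehicle. From the sums of 3 counts in propyzamide and 20 in vehicle, the level was 10.4 times higher in vehicle, with a counting interval of 3.09 to 54.8. It did not pass the filter and was not tested.

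Nxpe3 had 2, 5 and 0 counts in propyzamide and 6 and 1 counts in vehicle. That is 0.680, 2.57 and 0 CPM in propyzamide and 2.48 and 0.567 CPM in vehicle, and the groups overlapped. The vehicle counts were under the stray level for its length, which was 8.40 and 5.24 counts, and the propyzamide counts stood against stray levels of 0.540, 4.30 and 1.29 counts. From sums of 7 counts in each group the level was 1.56 times higher in vehicle, with a counting interval of 0.468 to 5.22 that includes no difference. A difference in Nxpe3 was not detectable at this depth.

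Levels can be compared between the members only per length, in the authors' TPM (counts per transcript length, scaled to a common total). Nxpe2 had 2.0, 2.01 and 1.2 TPM in propyzamide and 77.5 and 13.8 TPM in vehicle. Nxpe4 had 2.49, 0.81 and 0.52 TPM in propyzamide and 24.6 and 6.31 TPM in vehicle. Nxpe5 had 0, 0.19 and 0.44 TPM in propyzamide and 3.08 and 1.13 TPM in vehicle, and Nxpe3 had 0.11, 0.32 and 0 TPM in propyzamide and 0.65 and 0.07 TPM in vehicle. In both vehicle libraries the order of these levels was Nxpe2, Nxpe4, Nxpe5, Nxpe3, and over the vehicle libraries the ranges of Nxpe2 and Nxpe4 overlapped while those of the other neighbours in this order did not. In propyzamide the order of Nxpe2 and Nxpe4 varied between libraries, with Nxpe4 higher in replicate 1 and Nxpe2 higher in replicates 2 and 3. Vehicle replicate 1 stood farther above vehicle replicate 2 in TPM than in CPM for both Nxpe2 and Nxpe4, and the cause was not tested. In vehicle replicate 1, Nxpe2-203 took 25.5 TPM from 16.4 counts, and Nxpe2-201 took 27.8 TPM from 131 counts.

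The counts of Nxpe2 lay mostly on its main coding transcript. Nxpe2-201 held 93.3%, 78.5% and 0% of the gene's count in propyzamide and 72.3% and 83.9% in vehicle. The third propyzamide library had 2 counts for the gene, split between Nxpe2-202, a transcript annotated as a target of nonsense-mediated decay, and Nxpe2-204. Nxpe4 differed more. Nxpe4-201, which with Nxpe4-202 and Nxpe4-203 is annotated as coding, held 46.4%, 26.6% and 0% of the count in propyzamide and 70.7% in each vehicle library. Nxpe4-204, which retains an intron, held 50.5%, 73.4% and 0% in propyzamide and 29.3% in each vehicle library. Summed over libraries, Nxpe4-204 took 18.5 of 36 counts in propyzamide, or 51.4%, and 49.8 of 170 counts in vehicle, or 29.3%. The third propyzamide library had all of its 3 counts on the coding Nxpe4-202, so the order of the groups rests on the other propyzamide libraries.

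The annotated transcripts of Nxpe4 differ in how far upstream they start, and 0 counts lay on Nxpe4-203 in any library. Nxpe4-202 had 0.78, 0 and 3 counts in propyzamide and 0 in both vehicle libraries. For Nxpe5, all 3 propyzamide counts were assigned to Nxpe5-201, and the 20 vehicle counts to Nxpe5-203, with 17, and Nxpe5-205, with 3. These divisions are RSEM's estimates from few counts, and no test was made of them.

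**Figure D3:**
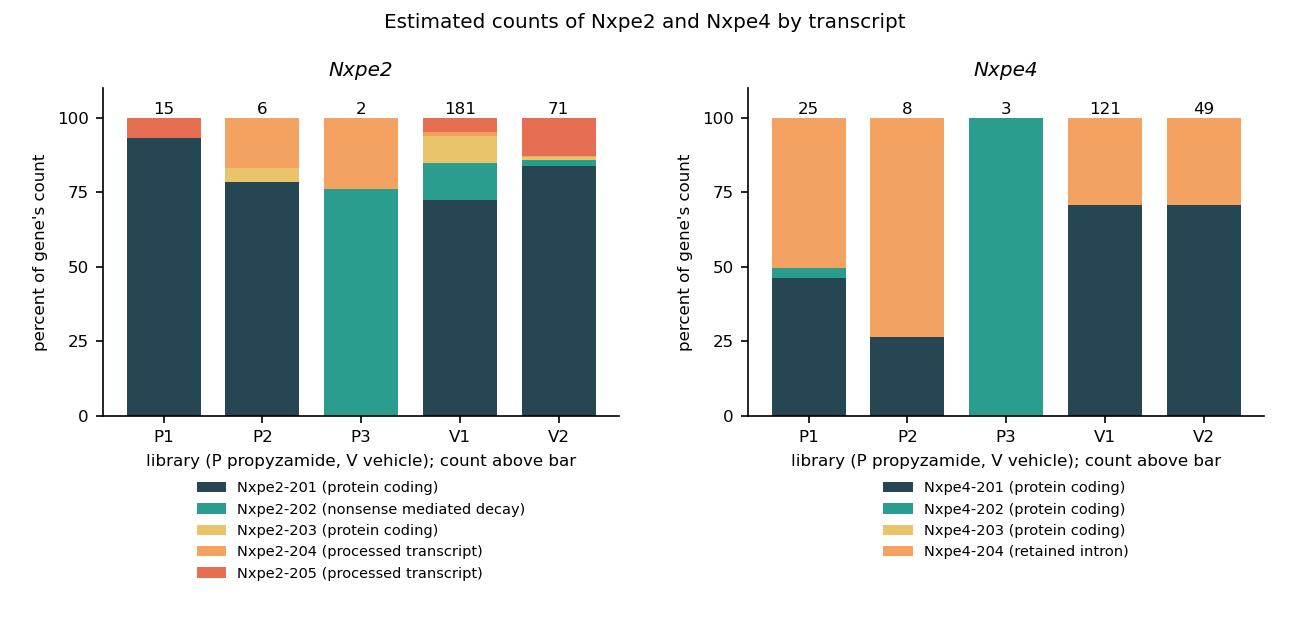
Share of each gene's estimated count by transcript for Nxpe2 and Nxpe4 in the 3 propyzamide (P1 to P3) and 2 vehicle (V1, V2) libraries, with the gene's count above each bar. Nxpe4-204 takes 50.5% and 73.4% in P1 and P2 and 29.3% in V1 and in V2, while P3 has 3 counts in all.

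Colon is a mixture of cells, and in bulk RNA fewer cells of a type and less RNA per cell cannot be told apart. Of 12 epithelial markers, 12 were tested with edgeR (quasi-likelihood, Benjamini-Hochberg) and 0 were called, with 2 at an unadjusted p under 0.05, 1 called by DESeq2 and 0 by limma on log2(TPM + 1) or log2(TPM + 0.1). Over all genes tested, 18.2% had an unadjusted p under 0.05, DESeq2 called 4.7%, and limma called 4.08% on log2(TPM + 1) and 2.3% on log2(TPM + 0.1). Every propyzamide library lay above both vehicle libraries for 3 of the 12 markers, against 16.7% of all genes tested. For 2 of the 12 markers every one lay below both, against 20.8% of all genes tested. Their summed level was 8662, 7163 and 6345 CPM in propyzamide and 7245 and 6310 CPM in vehicle, and their median log2 fold change was -0.08, against -0.02 over all genes tested. Those of smallest p were Krt20, a keratin of differentiated cells, at a log2 fold change of 1.66, Cldn3, a tight junction protein, at -1.19, and Elf3, an epithelial transcription factor, at -0.75. Per 1000 CPM of these markers, Nxpe2 stood at 0.589, 0.430 and 0.192 in propyzamide and 10.3 and 6.38 in vehicle. Nxpe4 stood at 0.981, 0.573 and 0.288 in propyzamide and 6.91 and 4.41 in vehicle. The groups did not overlap, and the mean ratio was 20.7 times higher in vehicle for Nxpe2 and 9.21 times higher for Nxpe4, beside 5.95 and 2.92 times per goblet marker and 66.8 and 28.8 times per absorptive colonocyte marker. The part of epithelial cells in the result was not tested.

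Goblet cells make mucus, and their markers varied more between libraries. The sum of 10 goblet markers was 6775, 698 and 4473 CPM in propyzamide and 8718 and 3107 CPM in vehicle, lowest in propyzamide replicate 2. Of the 10, 1 fell and 0 rose, against 1.21% and 0.69% of all genes tested. Their median log2 fold change was -1.17, against -0.02 over all genes tested. Every propyzamide library lay below both vehicle libraries for 3 of the 10 and above both for 1, against 20.8% and 16.7% of all genes tested. In edgeR 4 had an unadjusted p under 0.05, against 18.2%. Clca1 had 214, 24.6 and 161 CPM in propyzamide and 1634 and 468 CPM in vehicle, with an edgeR adjusted p of 0.0521. Retnlb and Zg16 lay the other way, with log2 fold changes of 2.13 and 0.23. For Retnlb every propyzamide library was above both vehicle libraries, with an edgeR adjusted p of 0.147. The one that fell was Best2, a chloride channel of colonic goblet cells, at 5.10, 0 and 1.22 CPM in propyzamide and 43.0 and 21.6 CPM in vehicle. Its edgeR adjusted p was 0.0339, and the call was lost without propyzamide replicate 3 (0.0842), vehicle replicate 1 (0.392) and vehicle replicate 2 (0.107). Per 1000 CPM of goblet markers, Nxpe2 stood at 0.752, 4.41 and 0.272 in propyzamide and 8.59 and 13.0 in vehicle, without overlap. Nxpe4 stood at 1.25, 5.88 and 0.408 in propyzamide and 5.74 and 8.95 in vehicle, so that propyzamide replicate 2 lay above vehicle replicate 1. The part of goblet cells in the result was not tested.

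**Figure D4:**
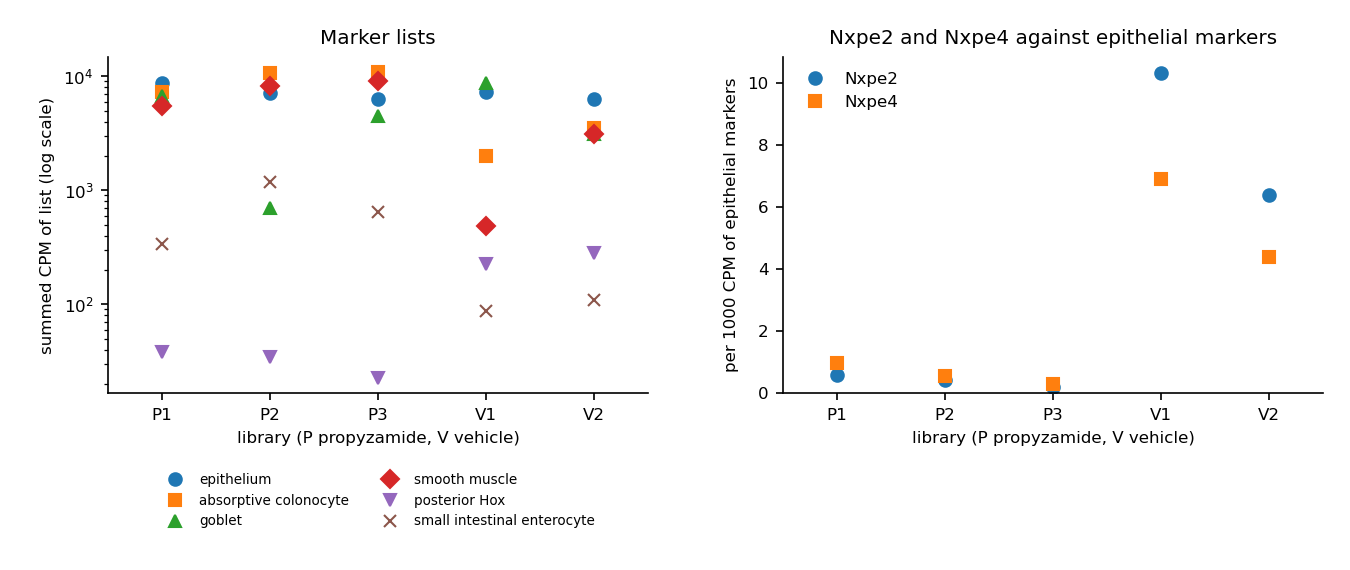
Left, summed CPM of 6 marker lists on a log axis in the propyzamide (P1 to P3) and vehicle (V1, V2) libraries. Right, CPM of Nxpe2 and Nxpe4 per 1000 CPM of epithelial markers, which reaches at most 0.981 in propyzamide and at least 4.41 in vehicle.

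Markers of position along the gut and of the gut wall differed between the groups as well. Absorptive colonocyte markers summed to 7265, 10644 and 10832 CPM in propyzamide and 1991 and 3486 CPM in vehicle. Of these 10, 3 rose and 0 fell, against 0.69% and 1.21% of all genes tested. The median was 2.13, against -0.02 over all genes tested. Those that rose were Slc9a3, a sodium and proton exchanger, Guca2a, the guanylin precursor, and Slc51b, a subunit of a bile acid and steroid exporter. Car4, Ceacam20 and Aqp8 lay the other way, with log2 fold changes of -0.57, -0.60 and -0.13 and overlapping groups. Markers of small intestinal enterocytes summed to 338, 1180 and 645 CPM in propyzamide and 88.1 and 108 CPM in vehicle. Of the 6 tested among 12, 3 rose and 0 fell, against the same 0.69% and 1.21% of all genes tested. Those 3 were Fabp2, a fatty acid binding protein, Alpi, an alkaline phosphatase of the brush border, and Slc10a2, the bile acid uptake carrier. Slc5a1, also tested, had a log2 fold change of -0.31 with overlapping groups. The Slc9a3 and Fabp2 calls held in all 18 alternatives. Without vehicle replicate 1 the calls of Guca2a, Slc51b and Slc10a2 were lost, and without vehicle replicate 2 those of Slc51b, Alpi and Slc10a2. The median log2 fold change of the 6 enterocyte markers was 5.36, or 5.002 with Apoa1, an apolipoprotein that was at 0 in vehicle, set at the bound that 3 counts over the group allow.

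Posterior Hox genes, which mark the hind end of the body axis, summed to 37.7, 34.4 and 22.5 CPM in propyzamide and 226 and 281 CPM in vehicle. Of the 5 tested among 7, 3 fell and 0 rose, against 1.21% and 0.69% of all genes tested. The median was -3.50, also with the 2 at 0 in propyzamide set at their bound. Hoxb13 had 23.1, 16.4 and 4.87 CPM in propyzamide and 165 and 179 CPM in vehicle, and Hoxd13 was at 0 in all 3 propyzamide libraries, with 33.5 and 51.6 CPM in vehicle. Hoxd11 was likewise at 0 in propyzamide, with 8.27 and 24.4 CPM in vehicle. The Hoxb13 and Hoxd13 calls held in all 18 alternatives, and Hoxd11 was not called once vehicle replicate 2 was left out, at an edgeR adjusted p of 0.259. Members of the list also lay the other way: Hoxa13 had 10.2, 13.9 and 10.3 CPM in propyzamide and 4.55 and 9.08 CPM in vehicle, and Hoxa11, not tested, had 4.42, 4.11 and 4.26 CPM in propyzamide and 2.48 and 2.27 CPM in vehicle, both without overlap. The marker lists of gut position differ between the same libraries as Nxpe2 and Nxpe4 do. Whether the pieces came from the same place along the colon in both groups is not given in the sources used here, so a difference in position and the treatment cannot be told apart, and its part in the 17.0-fold and 7.60-fold values was not tested.

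Smooth muscle markers summed to 5488, 8146 and 9157 CPM in propyzamide and 482 and 3117 CPM in vehicle, with a median log2 fold change of 2.17. All 8 had every propyzamide library above both vehicle libraries, against 16.7% of all genes tested. Of them 0 were called by edgeR, 8 had an unadjusted p under 0.05, DESeq2 called 6, and limma called 4 on log2(TPM + 1) and 0 on log2(TPM + 0.1). Synm, an intermediate filament protein, stood nearest the threshold with a log2 fold change of 2.50 (SE 0.59) and an adjusted p of 0.0504 in edgeR's quasi-likelihood test, and it was called in 9 of 18 alternatives. Synpo2 and Cnn1, proteins of the actin cytoskeleton, followed with log2 fold changes of 2.31 and 2.23. Adipocyte markers summed to 47.6, 103 and 303 CPM in propyzamide and 9.93 and 18.2 CPM in vehicle. Of the 3 tested 2 rose, against 0.69% of all genes tested: Cidec, a lipid droplet protein, and Cfd, the complement factor adipsin. Each call was lost without propyzamide replicate 3 and without either vehicle library. Cidec was also lost without propyzamide replicate 2, with the length offset and in both limma fits, and Cfd with DESeq2 and with background subtracted. Plin1 and Lep, not tested, lay the other way, with 1, 0 and 2 counts of Plin1 in propyzamide and 6 and 5 in vehicle, and 0 counts of Lep in propyzamide and 6 and 3 in vehicle. Fibroblast markers summed to 312, 847 and 996 CPM in propyzamide and 421 and 294 CPM in vehicle, and edgeR called 0 of 6, with 2 at an unadjusted p under 0.05, 1 by DESeq2 and 0 by limma. The matrix genes Dcn, Lum and Col3a1 had log2 fold changes of 1.84, 1.81 and 0.75, and that of Col3a1 was below 0 with limma. Leukocyte markers were scarce, at 36.7, 133 and 204 CPM in propyzamide and 102.2 and 79.4 CPM in vehicle. Of 9 leukocyte markers 2 were tested, Ptprc and Lyz2, and 0 were called by edgeR, DESeq2 or limma or had an unadjusted p under 0.05. Their log2 fold changes of -0.45 and 0.94 changed sign under an alternative each. The T cell marker Cd3e was at 0 in all propyzamide libraries and had 6 and 2 counts in vehicle, and the B cell marker Cd79a was at 0 in all propyzamide libraries and had 13 and 2 counts in vehicle. Adgre1, not tested either, had 1, 10 and 19 counts in propyzamide and 3 and 5 counts in vehicle. The stray level was higher in vehicle, and these few counts were not set against it. Whether any of these cell types has a part in the Nxpe result was not tested.

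The other genes of sialic acid handling were compared as a group, since human NXPE1 has been placed there. Of 14 genes of sialic acid synthesis, transport and removal, 11 were tested and edgeR called 0, with 3 at an unadjusted p under 0.05, 1 by DESeq2 and 0 by limma. Their median log2 fold change was -0.62, and 5 of the 11 had every propyzamide library below both vehicle libraries. Over all genes tested, 20.8% lay so and 18.2% had an unadjusted p under 0.05 in edgeR. Casd1, a sialic acid O-acetyltransferase, had 25.5, 12.3 and 18.9 CPM in propyzamide and 31.4 and 27.2 CPM in vehicle. Its log2 fold change was -0.62 (SE 0.41), with an adjusted p of 0.466 in edgeR's quasi-likelihood test. Siae, the esterase that takes such acetyl groups off, had 13.6, 18.5 and 12.2 CPM in propyzamide and 21.1 and 23.3 CPM in vehicle, with a log2 fold change of -0.58 (SE 0.42) and an adjusted p of 0.515 in the same test. Casd1 and Siae were named after their values were seen.

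Nearest the threshold among these genes was Gne, the first enzyme of sialic acid synthesis. It had 101.6, 42.6 and 33.5 CPM in propyzamide and 240 and 155 CPM in vehicle, a log2 fold change of -1.73 (SE 0.46) and an adjusted p of 0.0671 in edgeR's quasi-likelihood test. It was called in 6 of 18 alternatives, DESeq2 among them. Nans, which makes the sialic acid phosphate, had 104, 31.8 and 38.4 CPM in propyzamide and 163 and 125 CPM in vehicle, with an edgeR adjusted p of 0.165. Neu3, a sialidase of the cell membrane, had 0.680, 1.54 and 1.22 CPM in propyzamide and 5.38 and 5.67 CPM in vehicle, with an edgeR adjusted p of 0.212.

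Among sialyltransferases, which attach sialic acid to sugar chains, 9 of the 20 listed were tested. Of these, 1 fell and 0 rose, against 1.21% and 0.69% of all genes tested, with a median of -0.25. The one that fell was St6galnac4, which acts on mucin-type sugars, at 6.12, 4.11 and 4.26 CPM in propyzamide and 40.5 and 19.9 CPM in vehicle. Its log2 fold change was -2.61 (SE 0.50), with an adjusted p of 0.0272 in edgeR's quasi-likelihood test, and this call was lost without propyzamide replicate 3 (0.0726), without vehicle replicate 1 (0.405) and without vehicle replicate 2 (0.0612). It was also lost in limma on log2(TPM + 0.1), with 0.0788. Of the 9, 5 had an unadjusted p under 0.05 in edgeR, against 18.2% of all genes tested. DESeq2 called 3, and limma called 1 on log2(TPM + 1) and 0 on log2(TPM + 0.1). Every propyzamide library lay below both vehicle libraries for 4 of the 9 and above both for 2, against 20.8% and 16.7% of all genes tested. St3gal6, which adds sialic acid to galactose, was among those below. It had 30.9, 37.0 and 21.9 CPM in propyzamide and 98.4 and 64.1 CPM in vehicle, with an edgeR adjusted p of 0.0596. Those above were St3gal1 and St3gal3, which also add sialic acid to galactose. St3gal1 had 21.4, 64.2 and 29.8 CPM in propyzamide and 10.3 and 5.67 CPM in vehicle, with an edgeR adjusted p of 0.0559, and St3gal3 had 48.3, 99.1 and 28.0 CPM in propyzamide and 17.0 and 20.99 CPM in vehicle, with an edgeR adjusted p of 0.117.

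Of 12 mucins, 9 were tested, 2 fell and 1 rose, against 1.21% and 0.69% of all genes tested, with a median of -0.14. Muc6, a gel-forming mucin known mainly from stomach glands, had 3.06, 0 and 1.83 CPM in propyzamide and 32.7 and 22.1 CPM in vehicle. The edgeR quasi-likelihood fit gave a log2 fold change of -3.93 (SE 0.72) and an adjusted p of 0.0216. Muc5b, another gel-forming mucin, had 1.02, 0.513 and 0 CPM in propyzamide and 14.9 and 8.51 CPM in vehicle. It had a log2 fold change of -4.20 (SE 0.91), with an edgeR adjusted p of 0.0416. Muc3a, a mucin of the cell membrane, rose with 103, 85.7 and 125 CPM in propyzamide and 24.0 and 33.5 CPM in vehicle, a log2 fold change of 1.87 (SE 0.38) and an edgeR adjusted p of 0.0319. Reads may have been divided between Muc3a and the related Muc3. The Muc6, Muc5b and Muc3a calls were each lost without propyzamide replicate 3 and without either vehicle library, with adjusted p-values of 0.0607 to 0.532. Muc3a was also lost with library totals only (0.171) and in both limma fits (0.247 and 0.276). Muc5b was also lost in both limma fits (0.129 and 0.126), with the length offset (0.0528) and without propyzamide replicate 2 (0.0663). It did not pass the filter on low counts once background was subtracted, nor the filter of 10 CPM in 2 libraries. Muc2, the main mucin of colonic mucus, had 3603, 349 and 2283 CPM in propyzamide and 3333 and 1050 CPM in vehicle, with overlapping groups. Muc2 was named after its values were seen.

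The neurexophilins, Nxph1 to Nxph4, are secreted ligands of neurexins and the source of the family's name. Of these 4 genes 0 were tested, and they summed to 0.680, 4.62 and 0.609 CPM in propyzamide and 3.72 and 3.40 CPM in vehicle, with 6 counts as the highest value of any of them in a library.

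**Figure D5:**
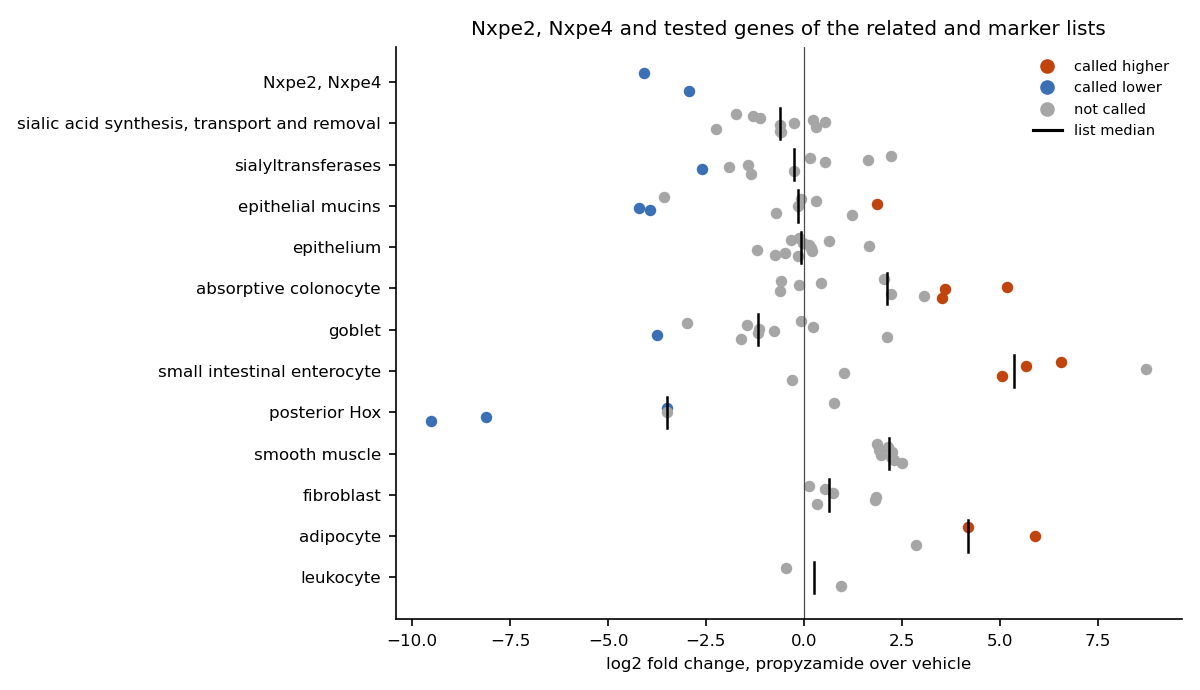
Log2 fold change, propyzamide over vehicle, of Nxpe2 and Nxpe4 and of the tested genes in the related and marker lists, with genes called by edgeR at an adjusted p under 0.05 in colour and list medians as black bars. Nxpe2 and Nxpe4 lie at -4.09 and -2.93, while epithelial markers centre on -0.08 and posterior Hox genes on -3.50.

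The genes most like Nxpe2 across the 5 libraries were found by the root-mean-square difference of log2(CPM + 1), centred per gene, among 7788 genes with enough level and range. They were Sfi1, a centrin-binding protein of the centrosome (0.36), Eno3, an enolase of muscle (0.38), Aoc1, the diamine oxidase of gut epithelium (0.38), Hoxb13 (0.40) and Lrmp, a membrane protein of the endoplasmic reticulum (0.40). Aoc1 had 18.0, 18.0 and 11.0 CPM in propyzamide and 208 and 124 CPM in vehicle. Sfi1 had 9.18, 8.73 and 5.48 CPM in propyzamide and 111 and 96.5 CPM in vehicle.

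Among those most like Nxpe4 were Ksr2, a kinase scaffold (0.25), Muc5b (0.25), Hpd, an enzyme of tyrosine breakdown (0.28), and Spink1, a protease inhibitor (0.28). Of these 4 Spink1 was the most abundant in CPM, with 58.8, 21.6 and 16.4 in propyzamide and 278 and 108 in vehicle. The other 3 had 11 counts or fewer in each propyzamide library. Nxpe4 ranked 15 in likeness to Nxpe2, with a difference of 0.49, and Nxpe2 ranked 50 in likeness to Nxpe4. Likeness was measured over 5 libraries and also reflects the difference between the groups that chose the members.

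No tested gene beside the Nxpe loci was called. Of 18 protein-coding neighbours, 3 on each side of each locus, 12 were tested and edgeR called 0, with 2 at an unadjusted p under 0.05, 1 by DESeq2 and 0 by limma. The 2 were higher in propyzamide. Rexo2, an exonuclease of mitochondria that lies 68487 bases after the Nxpe2 and Nxpe4 locus, had 51.3, 83.7 and 126 CPM in propyzamide and 21.9 and 26.7 CPM in vehicle, with a log2 fold change of 1.84 (SE 0.44) and an edgeR adjusted p of 0.0508. Lamtor4, a subunit of the lysosomal Ragulator complex, lies 2119 bases after Nxpe5 and had 37.0, 28.2 and 40.2 CPM in propyzamide and 15.3 and 19.3 CPM in vehicle, with an edgeR adjusted p of 0.182. On the other side of the Nxpe2 and Nxpe4 locus, Cadm1, a cell adhesion protein, had 2.04, 8.21 and 6.70 CPM in propyzamide and 11.6 and 14.8 CPM in vehicle, a log2 fold change of -1.25 (SE 0.65) and an edgeR adjusted p of 0.335. Nfkbiz, a nuclear regulator of NF-kB that lies 1054 bases from Nxpe3, had 26.8, 28.7 and 26.8 CPM in propyzamide and 18.6 and 26.7 CPM in vehicle, with an edgeR adjusted p of 0.756.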

How the data were processed

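Each library has 1 deposited RSEM table, which gives an estimated count (expected count) and a TPM for each transcript, per the file headers. RSEM, kallisto and GRCm38 are named without role, per the submitters' processing notes. Settings of the aligner and the release of the annotation are among the details not given in the sources used here. Per the labels' protocols, RNA came by Trizol extraction and libraries by SMART-Seq2, which carry no molecular identifiers. Amplified copies cannot be told from separate molecules, so the counting intervals may be too narrow even for counting error. RSEM shares reads among transcripts and genes with like sequence.

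Over 142647 transcripts, the authors' estimated counts were added up for each of 55471 genes, then rounded to whole numbers. Of the genes, 99.4% matched GENCODE M21, which gave symbols and coordinates. Genes were tested with edgeR 4.0.16 in R 4.3.3: filterByExpr, TMM scaling, the quasi-likelihood test with the group as its term, all 5 libraries, Benjamini-Hochberg adjustment over 12024 genes and a threshold of 0.05. The SE of a log2 fold change came from the F statistic. DESeq2 1.42.0 and limma 3.58.1 on log2(TPM + 1) and log2(TPM + 0.1) were alternatives. "Called", "rose" and "fell" mean past that threshold. Proteins were read from the transcripts' longest reading frames and aligned globally. The steps were tested on simulated counts, where 1.49% of 2-fold, 44.8% of 4-fold and 62.1% of 8-fold changes were recovered. A gene that was not called may therefore still differ between the groups. No libraries were duplicates, with a chi-square per degree of freedom of 16.0 or more for every pair.

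The members, the 13 gene lists and the rules were chosen with earlier results of these data known. Named were all members, each list's called genes or else its 3 of smallest p, the 5 nearest profiles per tested member with at least 2 log2 CPM and a range of at least 1, and the loci's neighbours. One gene that this rule named is not reported here.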

Additional observations from a re-analysis of the deposited data

How the results depend on the processing

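Across 18 alternatives, Nxpe2 was lower in propyzamide in all 18 and called in 17, and Nxpe4 was lower in all 18 and called in 14. With 1 library left out, the log2 fold change of Nxpe2 ranged from -4.71 to -3.60 and its call was lost only without vehicle replicate 1. That of Nxpe4 ranged from -3.71 to -2.47 and its call was lost without propyzamide replicate 3 and without either vehicle library, and also in limma on log2(TPM + 0.1), at -3.47. Leaving out a vehicle library leaves a lone one that is assumed to vary like the others. All of these fits reuse the libraries that chose the members, so they describe dependence on the processing and give no further support. Nxpe5 and Nxpe3 failed the filter, so they have few fits: Nxpe5 had -2.999 without a filter and -3.17 with rRNA-like and mitochondrial genes removed, and Nxpe3 had -0.40 without a filter, with 0 of these called.

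The number of genes called, 229, was 571 with library totals only, 1323 without a filter, 148 with a filter of 10 CPM in 2 libraries, 565 with DESeq2, 490 with limma on log2(TPM + 1), 362 with rRNA-like and mitochondrial genes removed, 126 with background subtracted and 36 to 499 with 1 library left out, lowest without vehicle replicate 1. The share of calls that were lower, 63.8%, was 74.8% with upper-quartile scaling, 84.8% with library totals only, 86.5% and 85.6% with limma, 54.0% with DESeq2 and with background subtracted, 49.3% with the replicate block and 36.4% without vehicle replicate 2. Over all genes the median log2 fold change was -0.14 with upper-quartile scaling, -0.38 with totals only, -0.39 and -0.47 with limma and -1.14 without a filter, against -0.02. For the 38 other named genes, 674 values were compared: 561 kept direction and side of the threshold, 59 lost the call, 50 gained it and 4 turned in sign, with 0 of those genes called: Col3a1 at -0.024 and -0.020 with limma, Lyz2 at -0.024 with the replicate block and Ptprc at 0.17 with the length offset. The cause was not tested.

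Replicates 1 and 2 share numbers between the groups, but nothing in the labels pairs them. The correlations of same-numbered deviations from the group means were 0.171 and 0.148, and with the numbers 1 and 2 swapped they were -0.148 and -0.171. The deviations of the 2 vehicle libraries from their mean mirror each other, so these values cannot decide whether libraries are paired. With the number as a replicate block, 639 genes were called, and Nxpe2 and Nxpe4 had log2 fold changes of -3.79 and -2.63, both called. Depth limits Nxpe3, Nxpe5 and the transcript shares most.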
